A study of Mus musculus with 208 samples.

Results

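Neuropeptide genes of the hypothalamus were followed through nuclear RNA of sorted neuronal nuclei from 4 brain regions of adult mice. The genes were Agrp, Npy, Cartpt, Hcrt, Pmch, Avp, Oxt, Trh, Gal and Tac2, taken by symbol from the count tables, 10 genes of 46403. They were chosen by name, with no limit set on their values, to describe their level in each region and condition and, library by library, what each hypothalamic dissection held.

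The study asked how morphine exposure around birth alters neurons of the adult brain, at rest and after an immune challenge. Wild-type C57BL/6NTac dams carried an osmotic minipump through gestation that delivered saline or morphine (10 mg/kg/day). All pups were raised by drug-naive surrogate dams and received 2 daily subcutaneous injections of morphine (10 mg/kg) or saline on postnatal days 1 to 14. As adults they received lipopolysaccharide (LPS, a bacterial cell wall component that triggers inflammation) or saline 2 h before the tissue was taken, which gave the groups SAL-SAL and SAL-LPS (saline exposure) and MOR-SAL and MOR-LPS (morphine exposure), named by exposure first and challenge second. Each library came from about 5000 nuclei positive for NeuN, a neuronal nuclear protein, sorted from 2.0 mm punches of 1 region of 1 animal, which lay next to each other in the hypothalamus and were bilateral elsewhere. There were 51 hypothalamic libraries (14 MOR-SAL, 14 MOR-LPS, 12 SAL-LPS and 11 SAL-SAL), 55 from the hippocampus, 48 from the prefrontal cortex (PFC) and 54 from the striatum. They came from 71 animals, each labelled with a replicate number of 2 parts, and a library is named here by its group and that number (SAL-SAL 4-3). The labels do not say what the first part stands for, a litter, a cage or another unit, so libraries that share it are called a number group, of which there were 18. No number group held both exposures, so exposures were compared between number groups. The p-values measure the spread between animals, and the litter of each animal was not used here. Nuclei show RNA that is being made or awaits export, and in such a punch fewer cells of a type and less RNA per cell cannot be told apart.

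Neuropeptide neurons of the hypothalamus are few, lie in small nuclei and make very large amounts of 1 or more peptide precursors. The arcuate nucleus holds AgRP and NPY neurons, which drive feeding, CART neurons, which with POMC neurons restrain it, and neurons that make neurokinin B (Tac2) for the control of reproduction. The lateral hypothalamus holds the orexin (Hcrt) and melanin-concentrating hormone (Pmch) neurons of arousal and feeding. The paraventricular and supraoptic nuclei hold the vasopressin (Avp), oxytocin (Oxt) and thyrotropin-releasing hormone (Trh) neurons, and galanin (Gal) is made in several hypothalamic fields. A punch a little off target can miss 1 of these nuclei and take another.

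The total count per library had a median of 5543589 in the hypothalamus (7673 to 35077048), 9184251 in the hippocampus, 9667628.5 for the PFC and 10849923.5 for the striatum. In the hypothalamus 3 libraries were under 0.5 of the regional median. SAL-LPS 1-4 (7673 counts) had no count of any member and SAL-SAL 4-3 (160755 counts) only of Trh, while SAL-SAL 1-1 had 1735379 counts. A single count stood at 130.4 CPM in SAL-LPS 1-4 and 6.27 CPM in SAL-SAL 4-3, so a 0 there does not exclude levels of that order or lower. In 3 hypothalamic, 4 hippocampal and 2 PFC libraries the Y-linked genes went against the labelled sex. Levels are given as CPM, a gene's count scaled to a common library total.

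Hypothalamic markers were counted in most libraries and missing in some. Of the 51 hypothalamic libraries 13 had all 10 members at 1 CPM or more, 7 had 9 and 8 had 8, but 9 libraries had at most 3. Sim1 and Otp, transcription factors of the paraventricular lineage, and Nkx2-1, of the ventral hypothalamus, had medians of 14.3, 1.94 and 5.77 CPM. Sim1 was at 0 in 11 libraries, Otp in 16 and Nkx2-1 in 14. Of the markers of neighbouring tissue, Rax of tanycytes was at 0 in 47 libraries and the pituitary hormone Cga at 0 in all 51, whereas the pituitary hormones Gh and Prl were at 0 in 42 and 46 (up to 8.33 and 2.03 CPM). In contrast, Foxj1 of ependymal cells was at 1 CPM or more in 34 libraries (up to 62.7), and Ttr of the choroid plexus reached 254.5 CPM. The neuronal gene Rbfox3, which encodes NeuN, was counted in all 51 libraries (68.1 to 391 CPM), at a median of 137 CPM against 1315 in the hippocampus, 2190 for the PFC and 1173 for the striatum. Another neuronal gene, Snap25, had medians of 714 CPM in the hypothalamus and 925, 736 and 672 in these regions, and Slc17a6, the glutamate transporter of subcortical neurons, 152 CPM against 19.4, 1.84 and 27.3. Such differences between regions are subject to the limit of counting by gene length given below.

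The regional picture split the genes into those found mainly in the hypothalamus and those found in all regions. Hcrt, Oxt, Gal, Avp and Trh were higher in the hypothalamus than in each other region, by 6.55-fold or more. Cartpt was higher by 9.17-fold against the hippocampus and 6.45-fold against the striatum but 1.67-fold against the PFC, and Tac2 by 2.77-fold, 1.95-fold and 1.73-fold against the hippocampus, striatum and PFC. Npy, which cortical and striatal interneurons also make, was lower in the hypothalamus than in every other region, and so was Agrp. All 9 members tested in each regional comparison passed an adjusted p of 0.05, 7 higher and 2 lower in the hypothalamus (edgeR's quasi-likelihood test with Benjamini-Hochberg adjustment over 22230 genes). Of 71 animals 69 gave more than 1 library, which this fit did not model. With the animal as a block in limma-voom the call of Tac2 against the PFC was lost. Calls were common among all genes: 33.8% were higher and 25.3% lower than in the hippocampus, 33.3% and 27.3% than in the PFC, and 35.1% and 26.4% than in the striatum. The members' median log2 fold change was 4.36, 3.41 and 2.71 in these 3 comparisons, against 0.19, 0.16 and 0.20 over all genes.

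**Figure D1:**
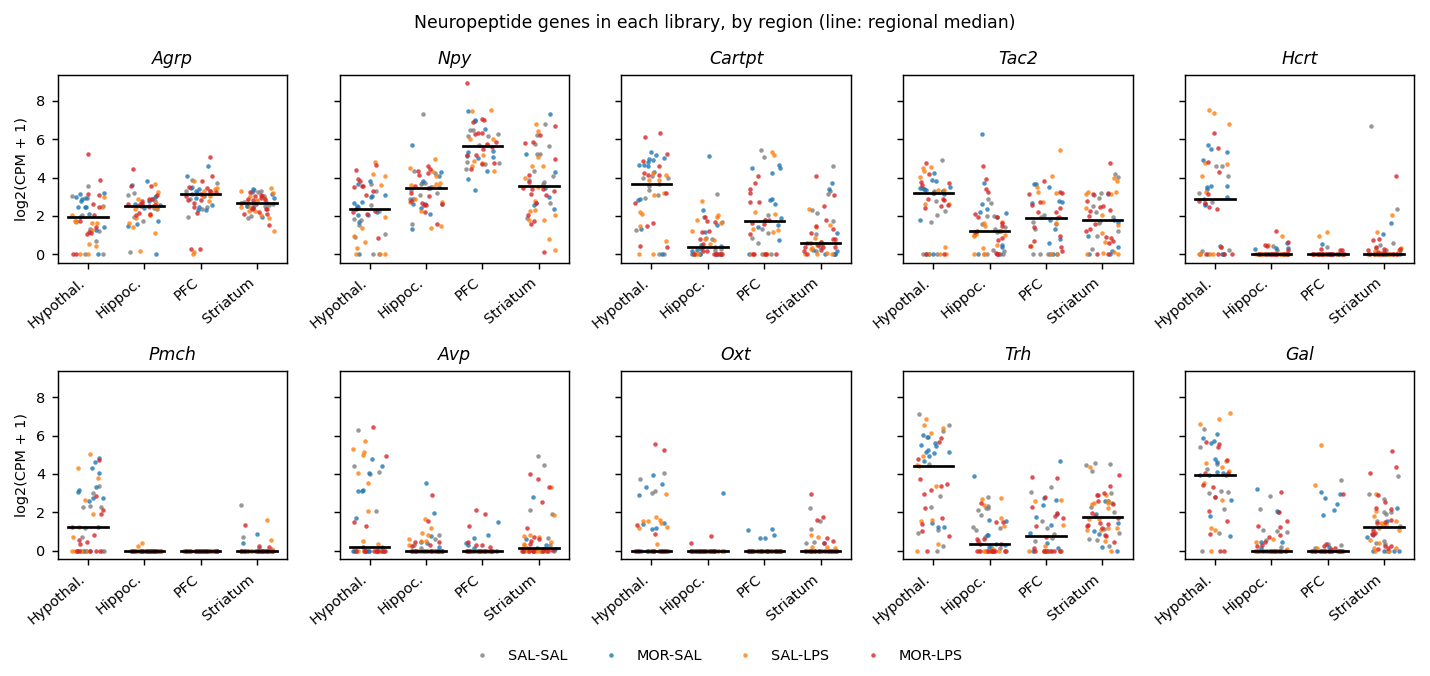
Level of each of the 10 neuropeptide genes, as log2(CPM + 1), in every library of the hypothalamus, hippocampus, PFC and striatum, 1 point a library coloured by condition, with the regional median as a line. Hcrt, Pmch, Avp and Oxt lie at or near 0 in most libraries outside the hypothalamus, with single high points in the striatum, whereas Npy is highest in the PFC.

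Hcrt, on mm10 chr11:100761069-100762931 (minus strand), encodes the precursor of the orexins. It ranged from 0 to 185 CPM over the hypothalamic libraries, with a median of 6.46 and 13 libraries at 0. Its highest level was 1.30 CPM in the hippocampus and 1.26 in the PFC, and its median was 0 in all 3 other regions. In the striatum 28 of 54 libraries were at 0 and 1 stood at 101 CPM. The fitted log2 difference of the hypothalamus was 7.54 ± 0.58 (SE) from the hippocampus (adjusted p = 7.38e-28), 7.96 ± 0.65 from the PFC and 4.13 ± 0.41 from the striatum. Among the SAL-SAL libraries alone the difference from the striatum was 1.17 (edgeR adjusted p = 0.358), and that striatal group held the library at 101 CPM.

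Pmch, on chr10:88091072-88092375 (plus strand), encodes melanin-concentrating hormone. It ranged from 0 to 31.8 CPM in the hypothalamus (median 1.31, 17 libraries at 0). No PFC library had a count of it, so it was not in the regional test, and its highest level was 0.337 CPM in the hippocampus and 4.26 in the striatum. Exons of Pmch share 435 of their 749 bases (58.1%) with the span of Parpbp on the other strand. Since no source used here states how strand was counted, reads of these genes cannot be told apart with certainty. Parpbp itself had a hypothalamic median of 1.82 CPM.

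Hcrt and Pmch mark neighbouring cell populations and varied together over the libraries and the 45 bases before both genes' start hold the letters ATAAA near the place where a TATA box lies. They are shown from RefSeq's annotation of GRCm38.p6, 5′ to 3′ on the gene's strand, with these letters in capitals.
Hcrt, chr11:100762932-100762976 (minus strand): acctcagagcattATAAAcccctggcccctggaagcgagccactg
Pmch, chr10:88091027-88091071 (plus strand): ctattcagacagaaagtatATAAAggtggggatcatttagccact
ATAAA, searched on the gene's strand only and chosen after the sequences were seen, was in this window in 5 of 9 members with a RefSeq promoter (Npy, Hcrt, Pmch, Avp and Oxt), against 6.48% of 27025 promoters. The longer TATAAA was in 2 of 9, Hcrt and Pmch, against 2.69%. Such a match is a description of the letters and not of a bound site.

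Avp, on chr2:130580620-130582554 (minus strand), and Oxt, on chr2:130576173-130577054 (plus strand), are neighbours that face each other and encode vasopressin and oxytocin with their carrier proteins, the neurophysins. Both were absent from many libraries: Avp was at 0 in 24 of 51 (median 0.156, highest 87.1 CPM) and Oxt in 26 (median 0, highest 45.5 CPM). Avp reached 10.4 CPM in the hippocampus, 3.29 for the PFC and 29.8 for the striatum, and Oxt 7.05, 1.19 and 6.81 CPM. Relative to the hippocampus, PFC and striatum the hypothalamus was higher by 4.53, 6.89 and 2.71 for Avp and by 6.00, 6.84 and 3.91 for Oxt on the log2 scale (edgeR adjusted p of 7.02e-11 or less). Among the SAL-SAL libraries alone the difference from the striatum was 1.58 for Avp (adjusted p = 0.130), no longer past the threshold, and 2.57 for Oxt (adjusted p = 0.0149).

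How far reads can tell these neighbours apart is visible in their transcripts. Their longest shared run has 127 bases in the exons of the neurophysin part (transcript bases 144 to 270 of Avp and 156 to 282 of Oxt). It is given in capitals with 15 bases on each side, read from the mm10 transcripts in the direction of transcription. The coordinates are those of the capital bases alone, which span exons 1 to 2, so they include an intron.
Avp, chr2:130581133-130582411 (minus strand): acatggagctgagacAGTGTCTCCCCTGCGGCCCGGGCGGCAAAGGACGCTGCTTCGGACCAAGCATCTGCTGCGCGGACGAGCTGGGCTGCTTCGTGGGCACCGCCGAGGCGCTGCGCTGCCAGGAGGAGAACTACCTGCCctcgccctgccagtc
Oxt, chr2:130576328-130576715 (plus strand): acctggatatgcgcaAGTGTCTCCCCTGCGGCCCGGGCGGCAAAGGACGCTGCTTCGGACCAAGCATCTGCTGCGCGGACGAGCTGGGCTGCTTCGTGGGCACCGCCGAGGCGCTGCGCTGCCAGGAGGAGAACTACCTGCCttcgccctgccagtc
Of all stretches of 50 bases, 78 occurred in both transcripts, 14.8% of those of Avp and 16% of those of Oxt, so part of each gene's reads is uncertain. The codons of the mature peptides differ, in 5 of 27 bases, shown here in capitals.
Avp, chr2:130582446-130582472 (minus strand): tgctacTtccagaactgcccAAGAggc
Oxt, chr2:130576267-130576293 (plus strand): tgctacAtccagaactgcccCCTGggc

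Trh, on chr6:92242061-92244650 (minus strand), encodes the hormone that starts the thyroid axis, and Gal, on chr19:3409915-3414544 (minus strand), encodes galanin. They were the most widely detected members in the hypothalamus: Trh was at 0 in 3 libraries (median 20.3, highest 139 CPM) and Gal in 4 (median 14.6, highest 145 CPM). The medians of the hippocampus, PFC and striatum were 0.283, 0.726 and 2.37 CPM for Trh and 0, 0 and 1.37 for Gal. The log2 differences of the hypothalamus were 4.37, 3.41 and 2.84 for Trh and 5.42, 3.58 and 3.37 for Gal, with standard errors of 0.29 to 0.40. Both also passed the threshold in the SAL-SAL libraries alone against the striatum, at 1.95 and 2.41.

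Cartpt, on chr13:99898489-99901091 (minus strand), encodes the CART peptides, and Tac2, on chr10:127724478-127731768 (plus strand), encodes neurokinin B. Cartpt had a median of 11.5 CPM in the hypothalamus (0 to 77.6, 5 libraries at 0) and of 0.283, 2.27 and 0.491 in the hippocampus, PFC and striatum. Tac2 had a median of 7.99 CPM (0 to 29.4, 10 libraries at 0) and of 1.31, 2.76 and 2.40 in the other regions. The ranges overlapped in each region, and the smaller differences depended on the libraries used: among SAL-SAL libraries alone Cartpt differed from the PFC by -0.16 and Tac2 from the striatum by -0.11 on the log2 scale, in the opposite direction and not past the threshold (edgeR adjusted p = 0.888 and 0.899). Cartpt differed from the striatum by 1.01 there (adjusted p = 0.239).

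Npy, on chr6:49822710-49829507 (plus strand), encodes neuropeptide Y. Its median was 4.17 CPM in the hypothalamus (0 to 26.6, 6 libraries at 0), 9.91 in the hippocampus, 49.5 for the PFC and 10.95 for the striatum, and no library outside the hypothalamus was at 0. The hypothalamus was lower by 2.32-fold than the hippocampus, 13.1-fold than the PFC and 4.54-fold than the striatum (edgeR adjusted p of 0.000410 or less).

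Agrp, whose product blocks melanocortin receptors, is a marker of arcuate neurons, but its counts were not those of a hypothalamic gene. Its median was 2.84 CPM in the hypothalamus, 4.78 in the hippocampus, 7.70 for the PFC and 5.39 for the striatum, and no striatal library was at 0. In the annotation Agrp spans 70696 bases (chr8:105566698-105637393, minus strand) for 1013 exonic bases, and 775 of these (76.5%) lie within the spans of other genes, among them Ctcf and Ripor1. Ctcf, a chromatin protein made in every cell, had regional medians of 37.7 to 59.4 CPM. How much of the Agrp count came from such reads was not tested. The log2 difference from the hippocampus, -0.50 ± 0.22 (SE, edgeR adjusted p = 0.0390), lost the threshold when only library size was used for scaling (-0.34, adjusted p = 0.177), among SAL-SAL libraries alone (-0.55), without the 15 libraries with markers of other regions described below (-0.42) and with the older edgeR quasi-dispersion (-0.49), 4 of 8 alternatives.

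Regional differences carry a limit that the tables themselves show: the counts of the hypothalamus and those of the other regions differ by gene length and by overlap with other genes. Of 12485 genes with a hypothalamic median of at least 5 CPM, 1480 (11.9%) had no count in any library of the other regions. This held for 1072 of 1157 genes whose exonic bases all lie in the span of another gene (92.7%) and for 2 of 6242 genes with no such base (0.032%). For genes with some but not all such bases, like Agrp and Pmch, it held in 27 of 4308 (0.627%). Genes without a single match by name in the annotation are in none of these classes. Genes with a span under 8 kb and no overlap, to which every member but Agrp and Pmch belongs by span and overlap, had median fitted differences of 0.58, 0.47 and 0.67 from the hippocampus, PFC and striatum (4810 genes), and those over 100 kb had -1.20, -1.21 and -1.47 (1397 genes). The upper quartiles of the short genes were 1.35, 1.41 and 1.29. The differences of Cartpt and Tac2 from the PFC and of Tac2 from the striatum lay inside this range, that of Tac2 from the hippocampus (1.47) just past it, and those of Hcrt, Oxt, Gal, Avp and Trh far above it, while Npy went the other way. The region and the way of counting cannot be told apart in these tables.

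Per kilobase of exon, which allows genes to be compared, the order of the hypothalamic medians was Gal (18.5 CPM per kb), Trh (14.7), Cartpt (8.99), Hcrt (8.62), Npy (7.37), Tac2 (5.80), Agrp (2.81), Pmch (1.75), Avp (0.270) and Oxt (0). Every member fell to 0 in some library, so the ranges of all neighbours in this order overlapped.

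The hypothalamic libraries varied widely within every condition. The summed level of the 10 genes ran from 0 to 522 CPM with a median of 91.2. By condition the medians were 72.7 CPM in SAL-SAL (5.02 to 346), 126 in MOR-SAL (13.9 to 260), 85.9 in SAL-LPS (0 to 522) and 73.5 in MOR-LPS (11.2 to 362). The 0 of SAL-LPS was that of library 1-4 (7673 counts), and its next lowest sum was 3.57 CPM. The ranges of the 4 groups overlapped, with SAL-LPS, MOR-LPS and SAL-SAL reaching above the highest MOR-SAL library. The same sum had medians of 19.2, 71.1 and 31.2 CPM in the hippocampus, PFC and striatum, and the median of Npy alone was 49.5 in the PFC.

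**Figure D2:**
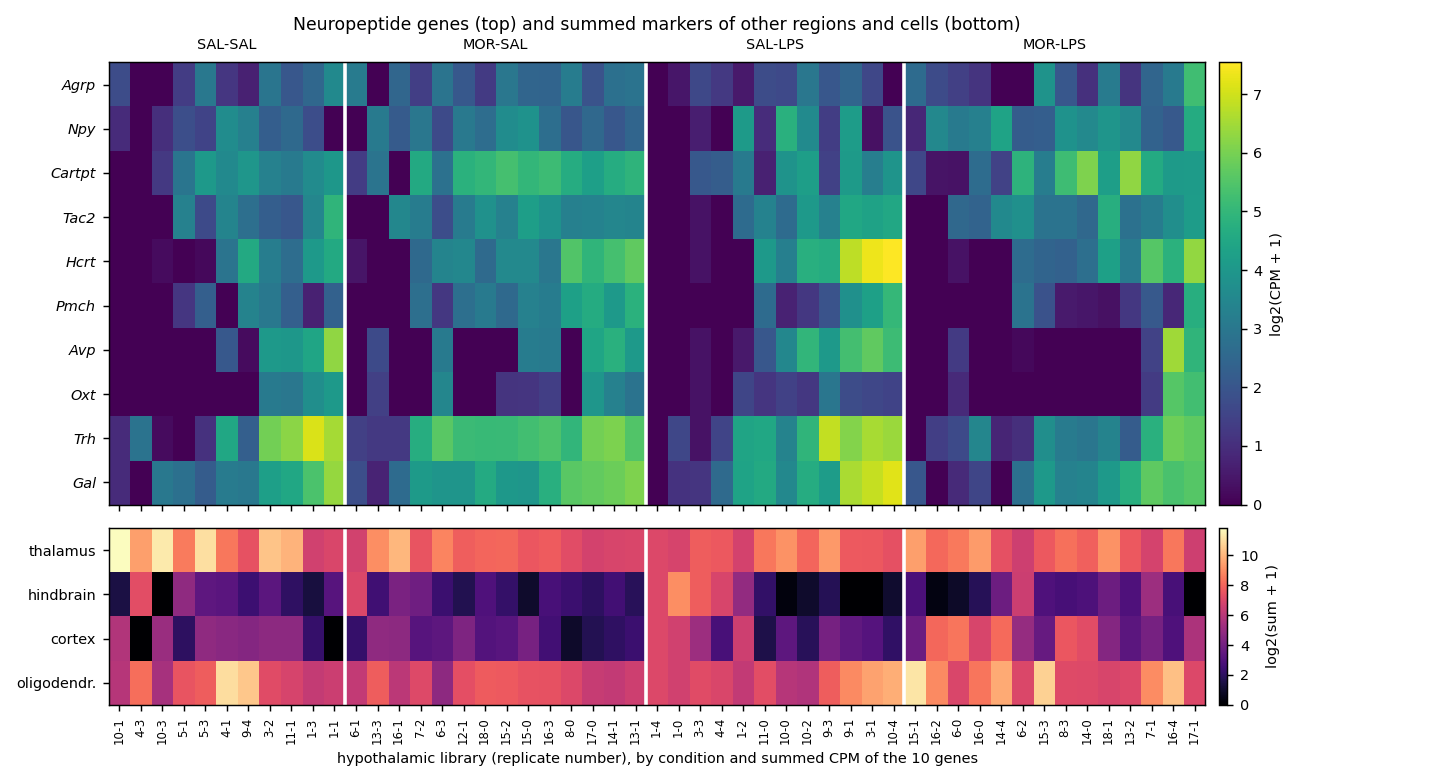
Each column is 1 hypothalamic library, ordered within its condition by the summed CPM of the 10 genes. The upper panel gives log2(CPM + 1) of each gene and the lower panel log2(sum + 1) of the CPM of marker lists for thalamus, hindbrain, cortex and oligodendrocytes. Libraries at the left of each block have few neuropeptide counts, and several of them are bright in a marker list below.

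Several libraries with low sums had high levels of markers of other places. SAL-LPS 1-0, the deepest hypothalamic library at 35077048 counts, had a sum of 3.57 CPM with 7 members at 0 (Npy, Cartpt, Hcrt, Pmch, Avp, Oxt and Tac2), while Slc6a5, the glycine transporter of hindbrain and spinal cord neurons, stood at 259 CPM and Fat2, of cerebellar granule cells, at 247. SAL-SAL 10-1 (sum 5.02) and SAL-SAL 10-3 (9.89) had 3643 and 2586 CPM over the thalamus list (Tcf7l2, Lef1, Prkcd, Rora, Ramp3, Plekhg1, Gbx2 and Tnnt1), whose median was 229. SAL-LPS 3-3, SAL-LPS 4-4 and MOR-SAL 6-1 (sums of 8.56, 12.1 and 13.9) had 221, 119 and 128 CPM over the hindbrain list, against a median of 5.44. MOR-LPS 16-2 and 6-0 (14.8 and 19.8) had 268 and 349 CPM over the cortex list (Slc17a7, Tbr1 and Neurod6), against a median of 16.0. MOR-LPS 15-1 (11.2) had 2329 CPM over the oligodendrocyte list (Mbp, Mobp and Mog), against a median of 140.1, in nuclei sorted for a neuronal protein. Whether these are off-target punches, exchanged tubes or shared tissue was not tested. In all, 15 hypothalamic libraries, hereafter the 15 libraries, were above 1000 CPM for the thalamus list (5), 50 for the hindbrain list (7) or 250 for the cortex list (3), limits that were set after the data had been seen, and the comparisons below were also made without them. SAL-LPS 1-4 was among the 15 through a hindbrain value of 130.4 CPM, which at 7673 counts is a single read. Such markers also stood beside the peptides: SAL-SAL 3-2, one of the 15, had 1339 CPM over the thalamus list and SAL-SAL 11-1 had 993, with sums of 140.6 and 146 CPM and all 10 members at 1 CPM or more.

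The libraries with the highest sums differed in which members were high. SAL-LPS 10-4 (522 CPM), SAL-LPS 3-1 (474) and SAL-LPS 9-1 (387) were the richest in Hcrt, at 185, 163 and 109 CPM, and in Gal, at 145, 116 and 95.2 CPM. In the same 3 libraries Avp was at 34.7, 51.5 and 37.8 CPM but Oxt at only 1.87, 2.07 and 2.35. In MOR-LPS 16-4, by contrast, Avp was at 87.1 and Oxt at 45.5 CPM, and in MOR-LPS 17-1 (362) Oxt was at 37.5 with the highest Agrp of all libraries, 36.8 CPM, and Hcrt at 78.8. SAL-SAL 1-1 (346) had Avp at 76.7 CPM at a low total count. Glial markers were also high in 4 of these 6 libraries: SAL-LPS 10-4, 3-1 and 9-1 had 913, 752 and 494 CPM over the oligodendrocyte list and 276, 233 and 139 over the astrocyte list (Aqp4, Gfap, Slc1a3 and Gja1), and MOR-LPS 16-4 had 1246 and 576. In MOR-LPS 17-1 and SAL-SAL 1-1 they were lower, at 130.3 and 91.6 CPM over the oligodendrocyte list and 60.3 and 27.7 over the astrocyte list, whose median was 27.3. Their part in these levels was not tested.

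Across the 51 libraries the Pearson correlations of log2(CPM + 1) were above 0 in all 45 pairs, from 0.046 to 0.883 with a median of 0.513, and 36 pairs had an adjusted p under 0.05 (permutation test with 100000 resamples, two-sided, Benjamini-Hochberg over the 45 pairs). Pairs share a library's depth and punch, animals of a litter or cage are not fully independent, and many points lie at 0, so the values describe these libraries. The closest pair was Hcrt and Gal (r = 0.883, rho = 0.866), followed by Avp and Oxt (0.857 and 0.905), Trh and Gal (0.821 and 0.830), Hcrt and Trh (0.805 and 0.789) and Hcrt and Pmch (0.794 and 0.801). Each of these 5 had a permutation p of 1e-05 for both measures, the smallest that this number of resamples gives, and 2.65e-05 after adjustment. Leaving out the 2 libraries farthest from the median of the first gene gave 0.864, 0.826, 0.810, 0.794 and 0.758. Within the conditions the correlation of Hcrt and Gal was 0.778 to 0.929, that of Avp and Oxt 0.723 to 0.992 and that of Hcrt and Pmch 0.547 to 0.943. Since Avp and Oxt share sequence, part of their correlation may lie in the counting.

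The counts of Agrp and Npy went another way. Agrp and Npy, which the same arcuate neurons make, had r = 0.11 and rho = 0.017 (permutation p = 0.442 and 0.905, adjusted 0.463 and 0.905), and -0.05 without the 2 farthest libraries. Of the exonic bases of Agrp 76.5% lie within other genes' spans, and both genes were lower here than in the other regions. The value therefore describes these counts and cannot speak for arcuate neurons. Npy had its lowest correlations with Avp (0.046) and Oxt (0.05). It was closer to Cartpt (r = 0.513, rho = 0.496, permutation p = 0.00012 and 0.00025), and Cartpt was closer to Gal (0.653) and Tac2 (0.621) than to Npy. Without the 15 libraries, 21 of the 45 pairs had an adjusted p under 0.05.

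**Figure D3:**
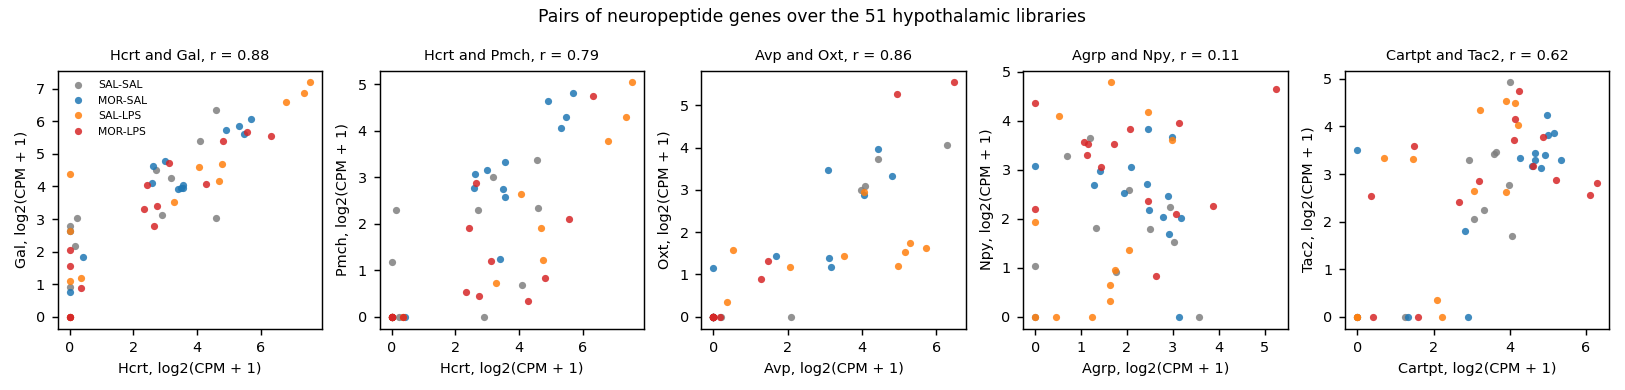
Pairs of neuropeptide genes over the 51 hypothalamic libraries, as log2(CPM + 1), 1 point a library coloured by condition, with Pearson's r above each panel. Hcrt rises with Gal (0.88) and Pmch (0.79) and Avp with Oxt (0.86), whereas the counts of Agrp, which overlaps other genes, and Npy (0.11) show no common course. Some SAL-LPS libraries, such as 10-4, 3-1 and 9-1, lie low in Oxt for their Avp, and others, such as 9-3, do not.

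A search over 18702 genes in the 48 hypothalamic libraries of sufficient depth, as a description with no test, gave the genes most alike in level. For Hcrt these were Gal (r = 0.883), Trh (0.801) and the transcription factor Isl1 (0.80), and for Pmch they were Hcrt (0.784), Isl1 (0.764) and Gal (0.749), so other neuropeptide genes led. Cartpt lay closest to Nkx2-1 (0.794), the transcription factor of the ventral hypothalamus, and then to Erp29 and Adcyap1. Tac2 lay closest to Nnat (0.766), Trh to Gal (0.821), Gm38193 and Calcr (0.81), and Gal to Hcrt, Dnah1 (0.854) and Gabrq (0.837). Npy lay closest to Kcnip2 (0.725), Ngef (0.687) and Gda (0.669), whose hypothalamic medians were 25.2, 40.4 and 27.2 CPM, and Agrp to Gca (0.641), Rnaset2b and Vars. Avp and Oxt were left out of this search, with medians under 1 CPM.

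The question of the study, whether perinatal morphine or LPS changes hypothalamic neurons, was then put to the 10 genes. No member passed an adjusted p of 0.05 in any hypothalamic comparison: 0 of 10 in edgeR, and 0 of 10 in DESeq2. Among all 28859 genes tested 1.89% were called in MOR-SAL vs SAL-SAL, 1.38% in MOR-LPS vs SAL-LPS, 0.939% in SAL-LPS vs SAL-SAL, 6.81% in MOR-LPS vs MOR-SAL and 2.61% in the interaction, which is the LPS difference in morphine-exposed minus that in saline-exposed mice. With an unadjusted p under 0.05 there were 0, 6, 2, 2 and 4 of the 10 members in the same order, beside 15%, 14.6%, 12.9%, 20.3% and 14.8% of all genes. The members' median log2 fold changes were 0.32, -0.25, 0.44, 0.25 and 0.07, against 0.04, 0.03, 0.03, 0.01 and -0.01 over all genes. In fits of 1 sex the members' median was 0.13 in males and 1.31 in females for MOR-SAL vs SAL-SAL, and in the other 4 comparisons it had opposite signs: 2.28 in males and -0.74 in females for MOR-LPS vs SAL-LPS, -1.90 and 2.44 for SAL-LPS vs SAL-SAL, -0.27 and 0.09 for MOR-LPS vs MOR-SAL, and 2.06 and -2.05 for the interaction. The difference between the sexes in these effects was not tested. Groups of 1 sex were small and held some of the 15 libraries described above. Among males these were SAL-LPS 1-0, 1-4 (7673 counts) and 3-3, and among females SAL-SAL 10-1, 10-3 and 4-3 (160755 counts). Intervals were wide, with standard errors of 0.42 or more per gene, so a difference of 2-fold could be missed. The filter mattered: with every gene of a total above 0 in the fit, 2, 7, 2, 4 and 5 members passed at nearly the same fold changes, while all the genes called numbered 1322, 1238, 813, 2567 and 1454 of 33122. The comparisons share groups and are not independent of each other.

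**Figure D4:**
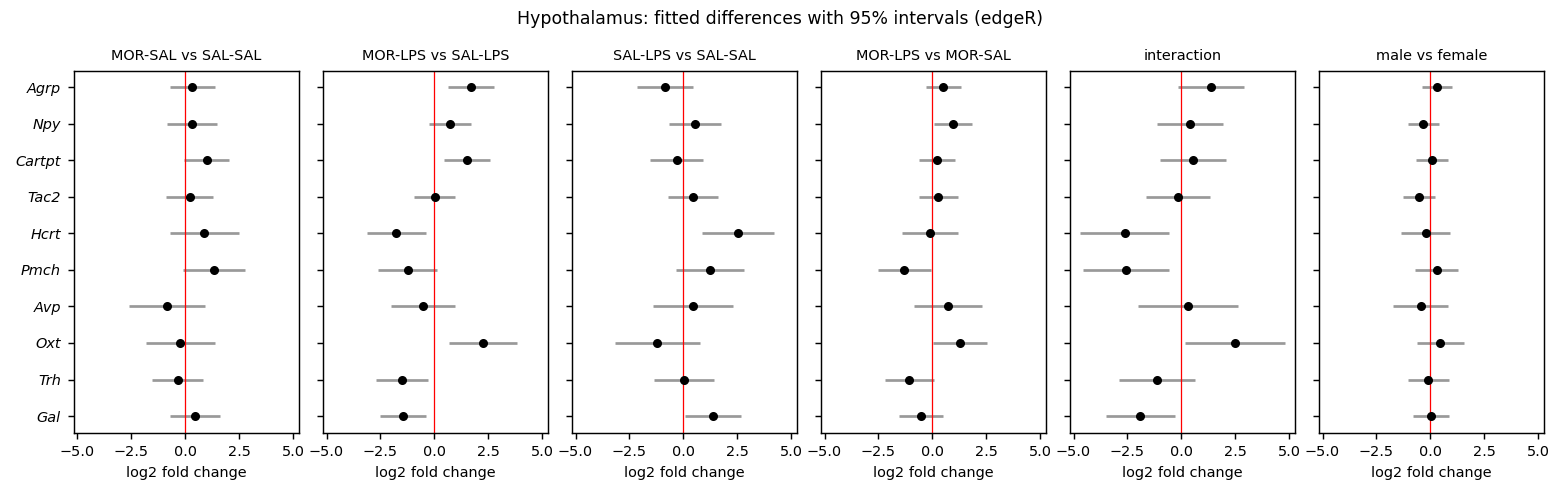
Fitted log2 fold changes (points) with approximate 95% intervals (bars) of the 10 neuropeptide genes in 6 hypothalamic comparisons, from edgeR, with 0 in red. In MOR-LPS vs SAL-LPS, Agrp, Cartpt and Oxt lie above 0 and Hcrt, Trh and Gal below it with intervals that leave out 0 before adjustment, and in male vs female every interval crosses 0.

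After LPS, the fitted differences between morphine-exposed and saline-exposed mice were above 0 for Agrp, Cartpt and Oxt and below 0 for Gal, Hcrt and Trh, and none of them was past the threshold. Agrp had a median of 2.74 CPM in MOR-LPS (0 to 36.8) and 2.09 in SAL-LPS (0 to 6.89), a fitted log2 fold change of 1.71 ± 0.54 (SE, edgeR adjusted p = 0.0903). Cartpt was at 16.4 CPM (0.283 to 77.6) against 5.54 (0 to 17.7), a value of 1.53 ± 0.55 (adjusted p = 0.142). Oxt had a median of 0 in MOR-LPS (0 to 45.5) and 1.52 in SAL-LPS (0 to 6.77), yet a fitted value of 2.26 ± 0.81 (adjusted p = 0.144). MOR-LPS 16-4 and 17-1 stood at 45.5 and 37.5 CPM and 10 of the 14 MOR-LPS libraries at 0. The groups overlapped for each gene. Cartpt passed the threshold when number group 10 was left out (2.32, edgeR adjusted p = 0.0399), and Agrp when library size alone was used for scaling (1.93). Without MOR-LPS 17-1 the value of Agrp was 0.99 (adjusted p = 0.345), and without MOR-LPS 16-4 that of Oxt was 0.56 (adjusted p = 0.811), so these 2 values rest largely on 1 library each.

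Gal, Hcrt and Trh had the opposite sign. Gal had a median of 9.22 CPM in MOR-LPS (0 to 49.7) and 18.3 in SAL-LPS (0 to 145), with a fitted value of -1.46 ± 0.55 (edgeR adjusted p = 0.168). Hcrt was at 4.86 CPM (0 to 78.8) against 12.2 (0 to 185), with -1.76 ± 0.70 (adjusted p = 0.202), and Trh at 7.35 (0 to 57.9) against 20.8 (0 to 114), with -1.49 ± 0.62 (adjusted p = 0.226). The highest Hcrt and Gal values of SAL-LPS were those of the 3 libraries named above. The 0 of Gal and of Trh in SAL-LPS was that of library 1-4 (7673 counts), and their next lowest levels were 1.14 and 0.281 CPM. Pmch (-1.23 ± 0.70) lay on the same side, but at -0.17 without SAL-LPS 10-4, and Npy (0.73), Avp (-0.54) and Tac2 (0.03) had unadjusted p above 0.05. With 1 library or number group left out these 3 ranged from 0.39 to 1.40, from -3.002 (without MOR-LPS 16-4) to -0.10 and from -0.26 to 0.42.

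In saline-exposed mice Hcrt had a median of 12.2 CPM after LPS against 5.54 in SAL-SAL (0 to 23.1), with a fitted value of 2.54 ± 0.85 (edgeR adjusted p = 0.142). It passed when number group 1 was left out (3.43, adjusted p = 0.0431), and that group held both the deepest and the shallowest hypothalamic library. Gal had 1.38 ± 0.66 (adjusted p = 0.358), with 2.55 when number group 1 and 0.75 when number group 10 was left out. In morphine-exposed mice the Npy median was 9.70 CPM after LPS (0.786 to 24.0) against 5.11 in MOR-SAL (0 to 13.3), a value of 0.96 ± 0.45 (adjusted p = 0.208) or 1.497 without number group 15, and the Pmch median 0.407 CPM (0 to 25.8) against 6.60 (0 to 27.0), a value of -1.31 ± 0.63 (adjusted p = 0.221). Leaving out MOR-LPS 17-1, whose Pmch was the highest of its group at 25.8 CPM, took Pmch past the threshold (-2.59, adjusted p = 0.0104).

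The interaction had its largest values for Hcrt (-2.63 ± 1.06, edgeR adjusted p = 0.192), Pmch (-2.56 ± 1.02, adjusted p = 0.185), Oxt (2.495 ± 1.18, adjusted p = 0.298) and Gal (-1.91 ± 0.82, adjusted p = 0.231). Pmch passed without MOR-LPS 17-1 (-3.69) and Gal without number group 1 (-3.06). Without SAL-LPS 10-4 the value of Pmch was -1.51, and without MOR-LPS 16-4 that of Oxt was 0.65, or 0.995 without number group 1. At rest, MOR-SAL against SAL-SAL, the values were 1.33 ± 0.74 for Pmch (6.60 against 1.27 CPM, adjusted p = 0.400) and 1.00 ± 0.54 for Cartpt (24.3 against 9.03 CPM, adjusted p = 0.381), and the other 8 members had unadjusted p above 0.05 too.

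Markers of other places and cells moved with the same comparisons. The thalamus list was lower in 6 of 8 genes in MOR-SAL and also in SAL-LPS than in SAL-SAL (edgeR), with summed medians of 206 (105 to 1067), 204 (108 to 638) and 702 CPM (102 to 3643). Without the 15 libraries 0 thalamus genes were called in these 2 comparisons and in the interaction. Since 5 of the 15 were picked by this same list, that loss follows in part from the choice. On all libraries DESeq2 called 5, 3 and 4. The 3 cortex genes reported were higher in MOR-LPS than in MOR-SAL, at 40.5 CPM (6.76 to 349) against 7.70 (0.935 to 27.1). So were the 3 oligodendrocyte genes reported, at 243 CPM (118 to 2329) against 134 (26.2 to 223), and all 4 astrocyte genes at 152 (13.0 to 576) against 24.8 (12.0 to 38.8), with 2 microglial genes higher and 1 lower. In MOR-LPS vs SAL-LPS the astrocyte genes Gfap (1.65) and Gja1 (1.83), the microglial gene Csf1r (1.35) and the cortex gene Neurod6 (2.04) were higher. In MOR-SAL vs SAL-SAL the oligodendrocyte genes Mobp (-2.37) and Mog (-2.15) and Csf1r (-1.75) were lower. In the interaction the 3 oligodendrocyte genes, 2 of 4 astrocyte genes, Csf1r and the cortex gene Slc17a7 were higher, and 5 of 8 thalamus genes as well. The hindbrain list, added after the data had been seen, had 2 of 9 genes higher in SAL-LPS than in SAL-SAL and 2 lower in MOR-LPS than in SAL-LPS. In MOR-LPS vs MOR-SAL its gene Slc6a5 was lower (-4.68) and Fat2 higher (3.53), and in the interaction Slc6a5 was lower (-9.96). Of the choroid plexus list Ttr alone was called, lower in MOR-SAL (-6.15, edgeR adjusted p = 3.06e-10) and in SAL-LPS (-5.68, adjusted p = 6.21e-08) than in SAL-SAL and higher in the interaction (7.80, adjusted p = 5.89e-06). That list summed to a median of 39.8 CPM in SAL-SAL (0.295 to 317), against 7.97 in MOR-SAL (1.54 to 19.5) and 4.64 in SAL-LPS (0 to 13.4). No gene of the neuron list was called between conditions, and of the remaining lists 1 gene at most was called in a comparison. Their part in the members' differences was not tested.

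Between the sexes 0 of 10 members were called in edgeR and in DESeq2, 0 had an unadjusted p under 0.05, and 4.02% of all genes were called. The members' median log2 fold change, male minus female, was -0.03, against -0.01 over all genes. The largest value was that of Tac2, at 6.01 CPM in 25 libraries from males (0 to 29.4) and 8.46 in 26 from females (0 to 25.8), with -0.53 ± 0.37 (edgeR adjusted p = 0.479). Oxt, with medians of 0.850 CPM in males and 0 in females, passed in favour of males (2.22, adjusted p = 0.0164) once MOR-LPS 16-4, a female at 45.5 CPM, was left out. In hypothalamic libraries from males the 3 oligodendrocyte genes reported, all 4 microglial genes, 3 of 4 astrocyte genes, the thalamus gene Prkcd (-1.38), the striatal gene Adora2a (-2.93) and the pituitary gene Gh (-3.52) were lower. The hindbrain genes Slc6a5 (3.77), Fat2 (3.26) and Hoxb3 (5.18) and the GABA transporter Slc32a1 of the neuron list (0.90) were higher in males, and sex was constant within every number group but group 3. The highest levels of these 3 hindbrain genes, 259, 247 and 3.99 CPM, were all in SAL-LPS 1-0, a male among the 15 libraries. Their hypothalamic medians were 0, 0.216 and 0 CPM.

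In the other regions no member was called by edgeR either, 0 of 9 in the hippocampus and PFC and 0 of 10 in the striatum, in each of 4 comparisons. In the order exposure at rest, exposure after LPS, LPS in saline-exposed mice and LPS in morphine-exposed mice, the share of all genes called was 0%, 2.52%, 2.69% and 0.448% for hippocampal libraries, 0%, 0.212%, 0.092% and 0.552% for the PFC, and 0.00427%, 1.23%, 0% and 1.7% for the striatum. Members with an unadjusted p under 0.05 numbered 2, 2, 1 and 3 for the hippocampus, 3, 4, 1 and 2 for the PFC and 3, 3, 4 and 2 for the striatum, in that order. Over all genes the shares were 6.2%, 16.5%, 17.2% and 11.1% for hippocampal libraries, 5.17%, 9.8%, 8.84% and 10.2% for the PFC, and 7.47%, 11.4%, 10.2% and 14.5% for the striatum. DESeq2 called 1 member in the hippocampus and 0 in the PFC and striatum.

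That gene was Gal, which was scarce in the hippocampus. It was at 0 in 11 of 14 SAL-LPS libraries with a highest level of 0.505 CPM, and its medians in SAL-SAL, MOR-SAL and MOR-LPS were 0.142, 0.0564 and 0.289 CPM with highest levels of 6.14, 8.28 and 7.45. The edgeR values were -3.83 ± 1.24 for SAL-LPS vs SAL-SAL (adjusted p = 0.0728) and 3.76 ± 1.20 for MOR-LPS vs SAL-LPS (adjusted p = 0.0688), and those of DESeq2 were -4.63 ± 1.18 (adjusted p = 0.0238) and 4.18 ± 1.13 (adjusted p = 0.0430). Both comparisons share the same SAL-LPS libraries. Tac2 in the hippocampus had 2.14 in MOR-LPS vs SAL-LPS (edgeR adjusted p = 0.0666), at 1.92 CPM (0 to 23.4) against 0.958 (0 to 2.21).

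In the PFC, Tac2 had 2.40 ± 0.66 in SAL-LPS vs SAL-SAL (edgeR adjusted p = 0.137), with medians of 6.95 (0 to 41.8) and 1.70 CPM (0 to 3.06), and Gal -3.47 ± 0.95 in MOR-LPS vs SAL-LPS (adjusted p = 0.103), where both medians were 0 and 1 SAL-LPS library stood at 44.6 CPM. In the striatum, Hcrt had -4.15 ± 1.01 in SAL-LPS vs SAL-SAL (adjusted p = 0.104), where SAL-SAL 4-3 alone held 101 CPM and the median of SAL-SAL was 0.0916. Oxt had 2.71 ± 0.81 in MOR-LPS vs SAL-LPS (adjusted p = 0.0716), with both medians at 0 and highest levels of 6.81 and 0.780 CPM. Apart from Tac2, these values rest on few libraries with counts.

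Libraries of the other regions with hypothalamic peptides were few and mostly striatal. The sum of Hcrt, Pmch, Avp and Oxt was above 5 CPM in 8 of 54 striatal, 2 of 55 hippocampal and 0 of 48 PFC libraries. The striatal library SAL-SAL 4-3 held Hcrt at 101, Avp at 29.8 and Pmch at 4.26 CPM together with striatal markers close to the regional median, Drd1 at 36.2 (median 51.4) and Adora2a at 40.0 (median 47.7). The hypothalamic library of the same animal, at 160755 counts, had 0 of these 4 peptides. The striatal library MOR-LPS 15-1 held Hcrt at 15.8 and Avp at 12.3 CPM with Sim1 at 16.0 (striatal median 0.458), and had Drd1 at 2.28 and Adora2a at 0. Its hypothalamic counterpart, with the oligodendrocyte markers described above, again had 0 of the 4 peptides, with Sim1 at 11.3, Drd1 and Adora2a at 0 and Rgs9, a gene of striatal neurons, at 43.1 CPM (striatal median 628).

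In other animals the libraries of both regions held some of the peptides. The striatal library SAL-SAL 9-4 had Avp at 21.1 and Hcrt at 4.09 CPM, and its hypothalamic counterpart Hcrt at 22.9 but Avp at 0.156. The striatal library MOR-LPS 15-3 had Avp at 15.0 and Oxt at 6.81 CPM, where the hypothalamic library had 0 of both and Hcrt at 4.43. The hippocampal library MOR-SAL 7-2 had Avp at 10.4, Oxt at 7.05 and Tac2 at 75.4 CPM, the highest Tac2 of the region. Whether punches took in hypothalamic tissue or tubes were exchanged was not tested. Without 7 striatal libraries whose striatal markers summed to under 200 CPM, all 9 members tested were again called between the hypothalamus and striatum, and Hcrt differed by 4.66 in place of 4.13.

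The wider set of neuropeptides held some calls. Of 25 other neuropeptide genes, 24 were tested in the hypothalamus and 0 were called in MOR-SAL vs SAL-SAL and in SAL-LPS vs SAL-SAL. In MOR-LPS vs SAL-LPS 2 rose and 1 fell, 3 of 24 beside 1.38% of all genes: Vip, the peptide of suprachiasmatic and cortical neurons, by 3.60 ± 0.71 (SE, edgeR adjusted p = 0.00236), Cck, the satiety peptide that cortical neurons also make, by 2.18 ± 0.46 (adjusted p = 0.00658), and Prok2, an output signal of the suprachiasmatic clock, at -5.27 ± 1.42 (adjusted p = 0.0456), which was at 0 in 38 of 51 libraries. Vip (4.65) and Cck (1.56) were also higher in MOR-LPS than in MOR-SAL, 2 of 24 beside 6.81% of all genes, where the cortex markers were higher too. In the interaction Vip (5.57) and Cck (2.94) were higher and Penk, the enkephalin precursor, was lower (-1.73), 3 of 24 beside 2.61%. The list's medians in the 5 comparisons, at rest first and the interaction last, were 0.41, -0.33, 0.91, -0.04 and -0.65. Without the 15 libraries 0, 3 and 0 genes of the list were called in MOR-LPS vs SAL-LPS, MOR-LPS vs MOR-SAL and the interaction, and DESeq2 called 1, 2 and 2. Pomc, the anorexigenic precursor of the arcuate nucleus, had a hypothalamic median of 1.15 CPM (0 to 41.6) and Kiss1 was at 0 in 48 of 51 libraries.

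Receptors for the 10 peptides were tested for 18 of 20 genes, and their calls stand beside 6.81% of all genes called in MOR-LPS vs MOR-SAL, 2.61% in the interaction, 1.38% in MOR-LPS vs SAL-LPS and 4.02% between the sexes. In MOR-LPS vs MOR-SAL the NPY receptor Npy1r rose (1.05 ± 0.31, edgeR adjusted p = 0.0245) and the galanin receptor Galr1 (-1.16 ± 0.34, adjusted p = 0.0271) and the orexin receptor Hcrtr1 (-1.07 ± 0.33, adjusted p = 0.0330) fell, and the orexin receptor Hcrtr2 was lower in the interaction (-1.71 ± 0.45, adjusted p = 0.0232). None (0 of 18) was called in the other 3 exposure or LPS comparisons or between the sexes. The enzymes and granule proteins that turn precursors into peptides had 15 genes tested. In MOR-LPS vs MOR-SAL carboxypeptidase E (Cpe, 0.57) rose and the granule protein Chga fell (-0.59), and in males the granule proteins Vgf (0.77) and Chgb (0.44) were higher. Of 22 transcription factors of hypothalamic nuclei, Foxb1 of the mammillary area was higher in MOR-LPS than SAL-LPS (2.74), and Six6 (-2.99) and Sox14 (-1.99) were lower in MOR-LPS than in MOR-SAL. Without the 15 libraries 1 receptor, 2 processing genes and 1 transcription factor were called in MOR-LPS vs MOR-SAL, and 0 of these 3 lists in MOR-LPS vs SAL-LPS and the interaction.

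Between regions, the receptor genes were higher in the hypothalamus in 10, 10 and 12 of 15 tested against the hippocampus, PFC and striatum and lower in 3, 2 and 1. The transcription factors were higher in 11, 10 and 9 of 13 and lower in 1, 2 and 2, with list medians of 3.53, 2.86 and 2.16 on the log2 scale. The other neuropeptides were higher in 12, 9 and 13 of 23 and lower in 4, 6 and 5. Processing genes, which all neurons use, were higher in 5, 4 and 8 of 15 and lower in 7, 9 and 6. These counts stand beside 33.3% to 35.1% of all genes higher and 25.3% to 27.3% lower, and under the same limit of counting as the members.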

How the data were processed

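Nuclear RNA of NeuN+ nuclei was sequenced with a modified Smart-seq3 protocol (Tn5 tagmentation, paired reads of 150 bases). The authors trimmed reads with Trim Galore 0.6.7, aligned them to mm10 with STAR 2.7.10a, counted reads per gene of GENCODE M25 with STAR, checked with HTSeq 0.12.4, and tested with DESeq2 1.40.2. Strand use in counting is not given in the sources used here. The authors deposited raw counts (46403 genes) and CPM without 37 mitochondrial genes (46366 genes) for each region; the CPM were recomputed from the counts within 1e-06. No 2 libraries held identical counts.

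Within each region, genes with a total count above 10 were fitted in edgeR 4.0.16 after TMM normalization (R 4.3.3; glmQLFit with legacy=FALSE, glmQLFTest) with the 4 conditions and sex. Regions were compared in 1 fit over the 22230 genes with a count in all 4 regions and a total above 10, by the mean over the 4 conditions of each region, with sex as a term. Benjamini-Hochberg adjustment covered all genes tested, and an adjusted p under 0.05 is called. The SE of an edgeR value was taken as the absolute log2 fold change over the square root of its F statistic. The 95% intervals were built from it and are approximate. That of Oxt in hypothalamic MOR-LPS vs MOR-SAL left out 0 (0.0111 to 2.55) at an unadjusted edgeR p of 0.0517. The newer quasi-dispersion was chosen on simulated data after results with the older one had been seen. On simulated counts for MOR-SAL vs SAL-SAL in the hypothalamus (27982 genes), 98 of 100 genes changed 4-fold and 52 of 100 changed 2-fold were recovered, and 38 unchanged genes were called (20.2% of calls). That share of false calls was above the threshold of 0.05. The changed genes were drawn from those of higher mean level, so the recovery does not hold for members mostly at 0, such as Oxt.

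All members are named, and of the lists (other neuropeptides, receptors, peptide processing, transcription factors, and markers of thalamus, cortex, striatum, hindbrain, oligodendrocytes, astrocytes, microglia, endothelium, choroid plexus, tanycytes, pituitary and neurons) at most 4 called genes per comparison by smallest p, plus genes that a result turns on. The members and lists were chosen with earlier results of these data known, and the cortex and oligodendrocyte lists were each shortened by 1 gene that is not reported here, for a reason unrelated to its values, after their results had been seen. Replicates are animals. No source used here ties the first part of the replicate number to a litter or cage, and litter was not modelled by the authors. Libraries that share it were no pairs in the data: limma-voom gave a correlation within number groups of -0.0489, and 36 hypothalamic pairs of an LPS and a saline library with the same first number had a median correlation of residuals of 0.0108 (7 over 0.1), against -0.0161 for 259 other pairs. The same number in 2 regions is the same animal. Counts, not intervals per library, set the precision: a count of 0 allows up to 3 counts of a total. Positions and transcripts were read from GENCODE M21 of mm10 and promoters from RefSeq. Alternatives were DESeq2 1.42.0, limma 3.58.1 on the deposited CPM, other filters and scalings, number group or animal as a block, single sexes, and each library and number group left out.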

Additional observations from a re-analysis of the deposited data

Results flagged for a closer look

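In groups of 4 to 10 libraries, 30 combinations of a member and a group were examined for 1 library far from the rest (Dixon's criterion), and 5 were flagged. Chance flags about 1 in 20 groups of continuous values, a rate that does not hold here, since in a group mostly at 0 any single library with a count meets the criterion. In the PFC of SAL-SAL mice (n = 10), Gal stood at 12 CPM in library 4-3, where the next library was at 0.292, and Hcrt at 0.292 CPM (3 counts) in library 10-1, where the other libraries were at 0. In the striatum of MOR-SAL mice (n = 8), Avp stood at 5.83 CPM in library 17-2 (next 0.496), Oxt at 0.32 CPM in library 8-0 (3 counts, others at 0) and Pmch at 0.837 CPM in library 15-2 (next 0.331). The hypothalamic groups hold more than 10 libraries and were not examined in this way.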

How the results depend on the processing

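Between conditions and sexes in the hypothalamus 0 members were called, and the count stayed at 0 under DESeq2, other size factors, filterByExpr, limma on the deposited CPM, and without low-depth libraries, without libraries against their labelled sex or without the 15 libraries (a setting chosen after seeing the data). With no filter but a total above 0, the counts were 2 in MOR-SAL vs SAL-SAL, 7 in MOR-LPS vs SAL-LPS, 2 in SAL-LPS vs SAL-SAL, 4 in MOR-LPS vs MOR-SAL and 5 in the interaction, at nearly the same fold changes, and the cause was not tested. With library size alone 1 member was called in hypothalamic MOR-LPS vs SAL-LPS (Agrp), 2 in the hippocampus (Gal and Tac2) and 1 in the striatum (Oxt) in that comparison. Males alone gave 1 in MOR-LPS vs SAL-LPS (Cartpt) and 1 in MOR-LPS vs MOR-SAL (Npy). Females alone gave 1 in SAL-LPS vs SAL-SAL (Gal), 1 in MOR-LPS vs MOR-SAL (Oxt) and 1 in the interaction (Trh). Leaving out 1 library or number group in turn gave 0 to 1 member in each hypothalamic comparison but MOR-SAL vs SAL-SAL, where it gave 0. DESeq2, and the older edgeR dispersion (chosen after seeing the data), each called 1 member (Gal) in hippocampal MOR-LPS vs SAL-LPS and 1 in SAL-LPS vs SAL-SAL.

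Against the striatum, SAL-SAL libraries alone called 4 of 9 members (Gal, Npy, Oxt and Trh), and there Cartpt against the PFC (-0.16) and Tac2 against the striatum (-0.11) turned sign. With these fewer samples the cause was not tested further. Correlated pairs were 21 without the 15 libraries, and 33 to 38 in the other settings. With the first part of the replicate number as a replicate block 0 members were called in SAL-LPS vs SAL-SAL and 0 in MOR-LPS vs MOR-SAL, and with the animal as a replicate block (limma-voom) 9, 8 and 9 of 9 differed from the hippocampus, PFC and striatum. The call lost there was that of Tac2 against the PFC (0.99), which was also lost among SAL-SAL libraries alone (1.58), without low-depth libraries (0.69) and with the older edgeR dispersion (0.87). Cartpt against the PFC lost its call with that dispersion (0.91) and among SAL-SAL libraries alone. Agrp against the hippocampus was called in 4 of 8 alternatives. The animal block came with limma-voom in place of edgeR, so what the block alone changes was not tested.

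Counts over all genes moved far more, from 9 to 1322 in MOR-SAL vs SAL-SAL, 2 to 1238 in MOR-LPS vs SAL-LPS, 0 to 813 in SAL-LPS vs SAL-SAL, 170 to 2567 in MOR-LPS vs MOR-SAL, 2 to 1454 in the interaction and 39 to 1783 between the sexes. With the animal block and limma-voom 11608, 12693 and 11422 genes higher and 5041, 4660 and 5537 lower were called in the hypothalamus than in the hippocampus, PFC and striatum, against 7522, 7403 and 7798 higher and 5619, 6059 and 5867 lower. With library size alone 8505, 8934 and 9168 were higher and 4765, 4763 and 4767 lower, the median of all genes being 0.335, 0.404 and 0.421 in place of 0.19, 0.16 and 0.20. Depth limits single libraries, above all those of 7673 and 160755 counts.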
